A study of Mus musculus with 4 samples.

Results

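The genes described here are 10 of the 14159 in the expression table, taken by symbol as the cyclins, cyclin-dependent kinases (CDKs) and CDK inhibitors that act in the G1 phase of the cell cycle. They were the D cyclins Ccnd1, Ccnd2 and Ccnd3, the E cyclins Ccne1 and Ccne2, the kinases Cdk2, Cdk4 and Cdk6, and the inhibitors Cdkn1b and Cdkn2a. Polyadenylated RNA of primary squamous cell carcinomas of mice, which arise from squamous epithelium and were not cultured, was sequenced in 2 libraries with an inducible Kdm4a knockout and in 2 control libraries. Kdm4a encodes a demethylase of histone H3, and the study asked about its loss in relation to immunity against these tumours and to replication stress. The labels call the other tumours only control. They name no strain, age, inducing agent, cell type in which the knockout acted or number of animals for either group.

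In G1, D cyclins bind Cdk4 or Cdk6 and start the phosphorylation of the retinoblastoma protein, which releases E2F transcription factors. E cyclins with Cdk2 complete that step and drive entry into S phase. Cdkn1b encodes p27, which holds cyclin E with Cdk2 inactive, and Cdkn2a encodes p16Ink4a, an inhibitor of Cdk4 and Cdk6, and from another reading frame p19Arf, which stabilises p53. In squamous carcinomas the human counterparts of Ccnd1 and Cdkn2a are among the recurrently altered genes.

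Levels are given in FPKM, fragments per kilobase of transcript scaled to the mapped fragments of the library, which can be compared between genes. Read depth is unknown. Differences were fitted as log2(FPKM + 1), and a log2 fold change is knockout over control on that scale. Kdm4a stood at 14.9 and 14.7 FPKM in the knockout libraries, against 29.6 and 27.7 FPKM in the control libraries (log2 fold change -0.91, limma adjusted p = 0.000774). Its transcript thus remained at 0.517 times the control mean, and the fall was number 1522 from the lowest of 12046 genes tested. The Pearson correlation across genes on the log2(FPKM + 1) scale was 0.972 between the knockout libraries, 0.973 between the control libraries and 0.876 to 0.889 across the groups. The basal keratin gene Krt14, a defining marker of squamous epithelium, was at 1570 and 1491 FPKM in the knockout libraries and at 2235 and 2260 FPKM in the control libraries. Nothing in the labels says whether libraries of a group came from separate tumours, so the p-values measure only the spread between these libraries, which may be technical.

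The G1 genes changed in both directions. The cyclin D1 gene Ccnd1 was the most reduced, the cyclin E2 gene Ccne2 was the most increased, and within the D cyclins, the E cyclins and the pair Cdk4 and Cdk6 the makeup differed between the groups. All 10 genes passed the filter of at least 1 FPKM in at least 2 libraries. By limma with Benjamini-Hochberg adjustment over 12046 genes, at a threshold of 0.05, 4 rose in knockout (Ccne2, Cdk2, Cdk4 and Cdkn2a), 4 fell (Ccnd1, Ccnd2, Cdk6 and Cdkn1b), and 2 did not pass (Ccnd3 and Ccne1). That share, 80.0%, stands beside 63.9% of all genes tested, of which 30.1% rose and 33.8% fell, so being called was common in this comparison. The FPKM ranges of the groups did not overlap for any of the 10, which was also true of 83.9% of all genes tested. A change of at least 1 on the log2 scale that also passed the test was seen in 2 of the 10, Ccnd1 and Ccne2, and in 17% of all genes. The median log2 fold change of the 10 genes was 0.25, against -0.03 over all genes tested.

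**Figure D1:**
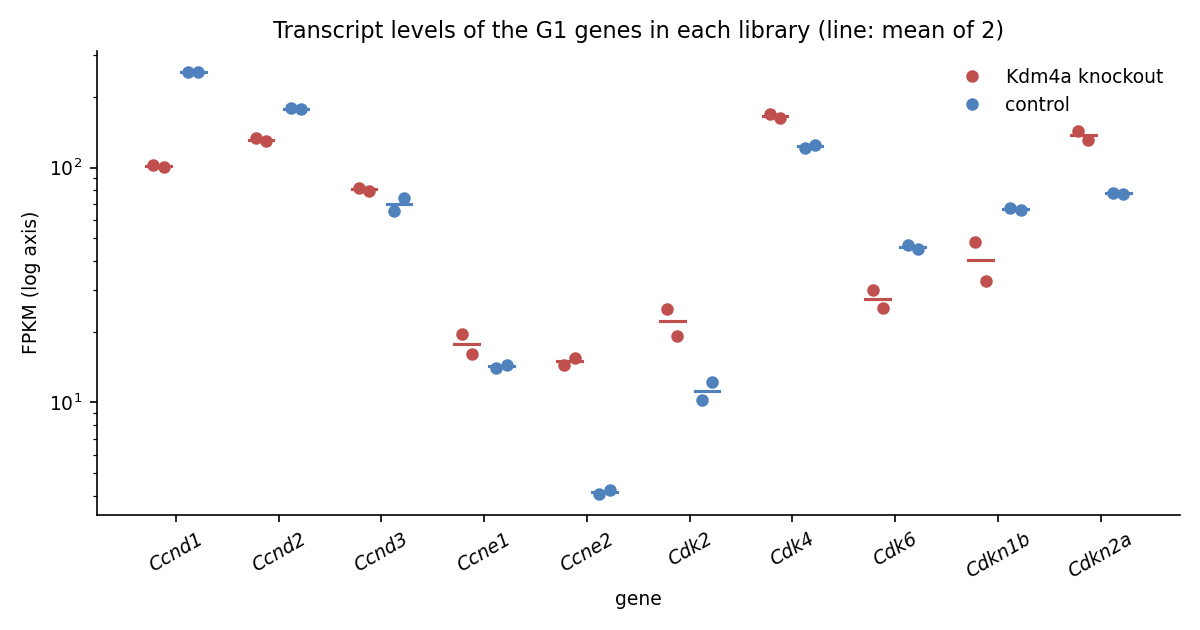
FPKM (log axis) of the 10 G1 genes in the 2 Kdm4a knockout libraries (red, left of each gene) and the 2 control libraries (blue, right), each point 1 library and each line the mean of 2. Ccnd1 lies near 101 FPKM in knockout and 255 FPKM in control, and Ccne2 near 15.0 FPKM in knockout and 4.17 FPKM in control.

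The order of the levels also differed. In the knockout libraries Cdk4 was highest with a mean of 166 FPKM, followed by Cdkn2a (137 FPKM), Ccnd2 (132 FPKM), Ccnd1 (101 FPKM) and Ccnd3 (80.8 FPKM), and Ccne2 was lowest (15.0 FPKM). In the control libraries Ccnd1 was highest with a mean of 255 FPKM, followed by Ccnd2 (178 FPKM), Cdk4 (123 FPKM), Cdkn2a (77.6 FPKM) and Ccnd3 (69.9 FPKM), and Ccne2 was again lowest (4.17 FPKM). Neighbours whose library values overlapped, and whose order is therefore not resolved, were Cdkn2a with Ccnd2 and Cdk2 with Ccne1 in knockout, and Ccnd3 with Cdkn1b in control.

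Of the D cyclins, Ccnd1 fell. It stood at 102 and 100.5 FPKM in the knockout libraries and at 255.4 and 254.8 FPKM in the control libraries. The libraries of each group lay close together and the groups were far apart, and the log2 fold change was -1.32 with a standard error (SE) of 0.06 (limma adjusted p = 0.000297), number 614 from the lowest of 12046. Ccnd2, whose product cyclin D2 also pairs with Cdk4 and Cdk6, was at 134 and 129 FPKM in the knockout libraries and at 178 and 177 FPKM in the control libraries. Both knockout libraries were lower and Ccnd2 fell (-0.43, SE 0.06, limma adjusted p = 0.00279), but with the trend of fold change with transcript length removed the difference was -0.08 (adjusted p = 0.243) and the call was lost. Ccnd3, the cyclin D3 gene, was at 82.1 and 79.4 FPKM in the knockout libraries and at 65.4 and 74.4 FPKM in the control libraries. Its control libraries differed from each other by more than control library b differed from the knockout libraries, and the log2 fold change of 0.21 did not pass (95% interval -0.01 to 0.42, limma adjusted p = 0.0800), although it passed with the length trend removed (0.29, adjusted p = 0.0254).

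Summed over the 3 D cyclins, the level was 318 and 309 FPKM in the knockout libraries, against 499 and 507 FPKM in the control libraries, or 0.624 times the control mean. Ccnd1 made up 32.1% and 32.5% of that sum in the knockout libraries and 51.2% and 50.3% in the control libraries. Ccnd2 made up 42.1% and 41.8% in knockout and 35.7% and 35.0% in control, and Ccnd3 made up 25.8% and 25.7% in knockout and 13.1% and 14.7% in control. In control tumours Ccnd1 thus had the highest level of the 3, and in knockout tumours Ccnd2 did. Multiplying a library by a constant leaves these shares unchanged. With the trend of fold change with transcript length removed, the knockout minus control difference in the Ccnd2 share was 11.2 percentage points, against 6.56 without that step. An exact two-sided permutation test over 4 libraries gave p = 0.333 for each of these 3 shares, the smallest that 2 libraries against 2 allow.

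**Figure D2:**
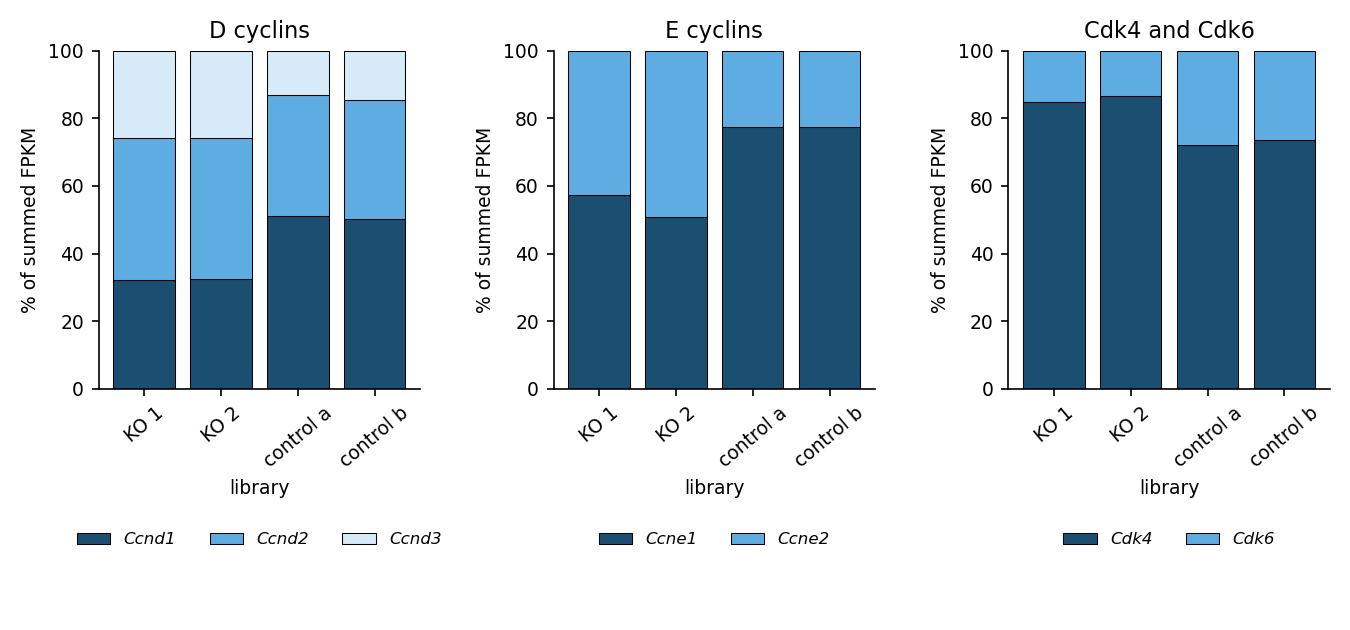
Share of the summed FPKM (%) that each gene contributed among the D cyclins, the E cyclins and the pair Cdk4 and Cdk6, 1 bar per library, with the knockout libraries (KO 1, KO 2) left of the control libraries. The Ccnd1 share is 32.1% and 32.5% in knockout and 51.2% and 50.3% in control.

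Of the E cyclins, Ccne2 rose. It was at 14.5 and 15.4 FPKM in the knockout libraries and at 4.09 and 4.25 FPKM in the control libraries, 3.58 times the control mean. On the log2(FPKM + 1) scale the change was 1.62 (SE 0.09, limma adjusted p = 0.000418), and leaving out any 1 library kept it between 1.58 and 1.67. Ccne1, the cyclin E1 gene, was at 19.5 and 16.02 FPKM in the knockout libraries and at 14.03 and 14.5 FPKM in the control libraries. Knockout library 2 lay much nearer to the control libraries than library 1 did, and the log2 fold change of 0.29 did not pass (95% interval -0.0016 to 0.59, limma adjusted p = 0.0747). Without knockout library 2 it was 0.43, and without knockout library 1 it was 0.16. With quantile normalization it passed at 0.39 (limma adjusted p = 0.0204). The share of Ccne2 in the summed E cyclin level was 42.6% and 49.0% in the knockout libraries, against 22.6% and 22.7% in the control libraries (exact two-sided permutation p = 0.333, the smallest possible). The ratio of summed D cyclin to summed E cyclin FPKM was 9.36 and 9.83 in the knockout libraries and 27.6 and 27.0 in the control libraries.

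The kinase genes also split. Cdk2, the partner of cyclins E and A, was at 25.1 and 19.3 FPKM in the knockout libraries and at 10.2 and 12.2 FPKM in the control libraries. Every knockout value exceeded every control value, although the knockout libraries differed by more than the control libraries, and Cdk2 rose by 0.92 on the log2 scale (SE 0.16, limma adjusted p = 0.00571). Cdk4 was at 169 and 163 FPKM in the knockout libraries and at 122 and 125 FPKM in the control libraries. It rose by 0.43 (SE 0.06, limma adjusted p = 0.00309), a smaller change with little spread within the groups. Cdk6, the other kinase that binds D cyclins, was at 29.96 and 25.1 FPKM in the knockout libraries and at 47.0 and 45.0 FPKM in the control libraries. It fell (-0.72, SE 0.10, limma adjusted p = 0.00316), and the value shrank to -0.20 (adjusted p = 0.0495) with the length trend removed. Cdk4 and Cdk6 together summed to 199 and 188 FPKM in knockout and 169 and 170 FPKM in control, and the Cdk6 share was 15.0% and 13.4% in the knockout libraries, against 27.9% and 26.5% in the control libraries (exact two-sided permutation p = 0.333, the smallest possible). That difference of -13.0 percentage points shrank to -5.50 with the length trend removed.

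The promoters of Cdk4 and Cdk6 are shown because the kinases have overlapping functions and changed in opposite directions. Each is the 250 bases before and 50 bases after a RefSeq transcript start in build GRCm38.p6, written 5′ to 3′ on the strand of the gene, with E-boxes in capitals. The E-box CACGTG, the hexamer bound by MYC and related factors, reads the same on both strands. Cdk4 lies on the plus strand at chr10:127063285-127063584, Cdk6 on the plus strand at chr5:3343643-3343942.
Cdk4: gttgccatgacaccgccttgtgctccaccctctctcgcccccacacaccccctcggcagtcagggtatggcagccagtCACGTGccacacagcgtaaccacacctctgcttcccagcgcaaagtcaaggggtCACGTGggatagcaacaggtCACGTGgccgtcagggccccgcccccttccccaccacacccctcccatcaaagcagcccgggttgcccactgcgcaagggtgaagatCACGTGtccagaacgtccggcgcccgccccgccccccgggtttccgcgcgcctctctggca
Cdk6: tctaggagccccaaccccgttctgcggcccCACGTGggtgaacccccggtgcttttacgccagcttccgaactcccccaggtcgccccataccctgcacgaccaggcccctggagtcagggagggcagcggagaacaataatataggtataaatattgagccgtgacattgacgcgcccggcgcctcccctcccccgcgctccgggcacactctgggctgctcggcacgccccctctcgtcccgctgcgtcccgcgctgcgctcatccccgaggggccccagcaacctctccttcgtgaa
The Cdk4 window held 4 E-boxes and the Cdk6 window 1, and 7.15% of 32851 RefSeq promoter windows of the same length held at least 1. Of 9 promoter windows found for 7 of the 10 genes, these 2 were the ones with an E-box. None of the 9 held the E2F motif in the forms searched on both strands, TTTCGCGC, TTTGGCGC or GGCGGGAA (2.96% of all windows). None held the cyclic AMP response element TGACGTCA (1.79%). Other forms of the E2F motif were not searched, so its absence is not shown. The unsearched form TTTCCCGC can be read in the upstream Cdkn2a window, and in the Cdk2 window on the opposite strand. Ccnd1, Ccnd2 and Ccne2 had no entry. A match is a description of the letters in these windows and was not tied to binding of any factor.

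The inhibitor genes moved apart. Cdkn2a was at 143 and 132 FPKM in the knockout libraries and at 78.1 and 77.1 FPKM in the control libraries. Both knockout libraries were well above both control libraries, and Cdkn2a rose by 0.82 on the log2 scale (SE 0.07, limma adjusted p = 0.000798), or to 1.77 times the control mean. Cdkn1b was at 48.2 and 32.8 FPKM in the knockout libraries and at 67.15 and 66.1 FPKM in the control libraries. It fell (-0.73, SE 0.18, limma adjusted p = 0.0201), but the knockout libraries lay far apart. The value was -1.0001 without knockout library 1 and -0.46 without knockout library 2. The ratio of Cdkn2a to Cdkn1b was 2.97 and 4.01 in the knockout libraries and 1.16 and 1.17 in the control libraries.

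Cdkn2a has separate promoters for its 2 annotated transcripts, and the deposited value does not separate them. The upstream start gives p19Arf and the downstream start gives p16Ink4a, on the minus strand, with 12427 bases between the starts. The windows are shown at chr4:89294570-89294869 (upstream) and chr4:89282143-89282442 (downstream) in GRCm38.p6. No letters are in capitals because none of the motif forms searched occurred. The form TTTCCCGC, present in the upstream window, was not among them.
Cdkn2a, upstream start: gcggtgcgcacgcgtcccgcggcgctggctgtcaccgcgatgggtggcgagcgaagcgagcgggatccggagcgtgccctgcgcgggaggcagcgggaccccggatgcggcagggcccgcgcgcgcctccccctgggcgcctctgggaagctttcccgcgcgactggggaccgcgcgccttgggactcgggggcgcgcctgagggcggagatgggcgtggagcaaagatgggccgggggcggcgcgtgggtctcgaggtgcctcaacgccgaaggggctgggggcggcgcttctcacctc
Cdkn2a, downstream start: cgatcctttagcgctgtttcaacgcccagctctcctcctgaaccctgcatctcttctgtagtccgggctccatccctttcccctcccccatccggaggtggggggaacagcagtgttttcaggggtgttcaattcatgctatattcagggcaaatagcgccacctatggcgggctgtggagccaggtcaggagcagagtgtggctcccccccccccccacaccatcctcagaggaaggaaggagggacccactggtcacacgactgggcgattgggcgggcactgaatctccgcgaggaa
The upstream window was 77.0% G or C and the downstream window 60.3%. Which start carried the rise in Cdkn2a cannot be read from these data.

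**Figure D3:**
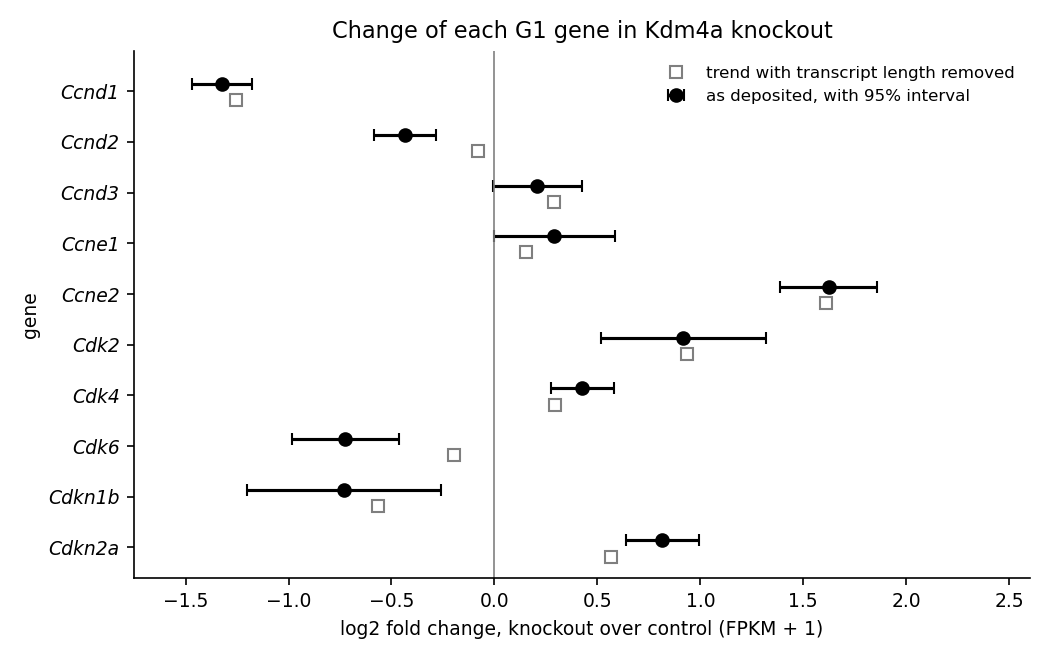
Log2 fold change of each G1 gene, knockout over control, on the log2(FPKM + 1) scale (filled points, bars the 95% interval from limma), with the value after removal of the trend with transcript length (open squares). Ccnd1 at -1.32 and Ccne2 at 1.62 hardly move, whereas Ccnd2 and Cdk6 move from -0.43 and -0.72 to -0.08 and -0.20.

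Across all genes the fold change declined with transcript length. In the decile of tested genes with the shortest transcripts (median 875 nt) the median log2 fold change was 0.19, and in the decile with the longest (median 8025 nt) it was -0.43. The longest annotated transcripts (GENCODE M21, GRCm38) of the 4 genes that fell ran from 3740 nt (Ccnd1) through 4552 nt (Cdkn1b) and 6330 nt (Ccnd2) to 11525 nt (Cdk6). Those of the 4 genes that rose ran from 895 nt (Cdkn2a) through 2053 nt (Cdk4) and 3006 nt (Ccne2) to 3264 nt (Cdk2), so the lengths of the groups did not overlap. With the trend removed, 5 genes rose and 3 fell, beside 63.7% of all genes called in either direction: Ccnd3 gained a call and Ccnd2 lost it. Under that setting Ccnd1 was at -1.25, Cdkn1b at -0.56, Cdk4 at 0.29, Cdkn2a at 0.57, Cdk2 at 0.93 and Ccne2 at 1.61, each past the threshold.

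**Figure D4:**
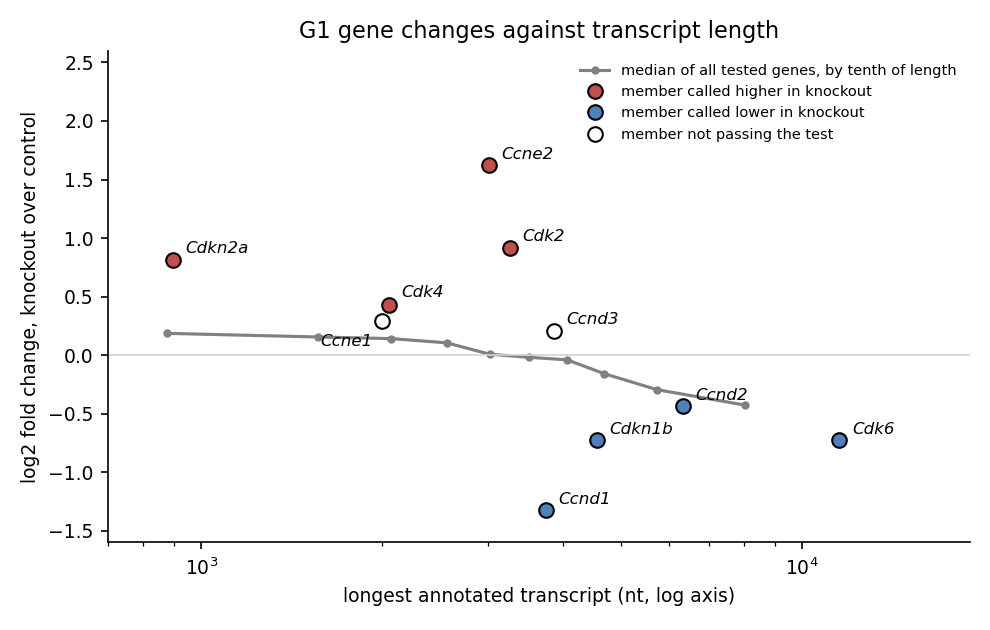
Log2 fold change, knockout over control, of the 10 G1 genes against the length of their longest annotated transcript (log axis), with the median of all tested genes in each decile of length (grey line). Members called higher lie between 895 and 3264 nt and members called lower between 3740 and 11525 nt.

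In GRCm38, some of the genes share a chromosome. Ccnd1 (chr7:144929931-144939925, minus strand) fell, and Ccne1 (chr7:38097984-38107534, minus) did not pass. Ccne2 (chr4:11191351-11204779, plus) and Cdkn2a (chr4:89274471-89294653, minus) rose. Cdk2 (chr10:128697939-128705031, minus) and Cdk4 (chr10:127063534-127067920, plus) rose. Ccnd2 (chr6:127125162-127152193, minus) and Cdkn1b (chr6:134920401-134925513, plus) fell. Ccnd3 lies at chr17:47505051-47599691 (plus) and Cdk6 at chr5:3341485-3531008 (plus).

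Exons of 7 of the 10 genes overlap those of a gene on the opposite strand, and although the labels name a stranded library kit, no source used here says whether strand was used in counting. Reads from the overlapping stretches of such a pair may therefore have been counted for either gene. Of the partners in the table, Oraov1 beside Ccnd1 was at 4.41 and 4.23 FPKM in knockout and 2.01 and 2.33 FPKM in control, and rose where Ccnd1 fell (log2 fold change 0.75, limma adjusted p = 0.00369). 9330179D12Rik beside Ccnd2 was at 1.58 and 1.04 FPKM in knockout and 3.38 and 2.74 FPKM in control and fell (-0.82, adjusted p = 0.00981). Ints8 beside Ccne2 rose (24.1 and 23.8 FPKM in knockout, 11.7 and 11.9 FPKM in control), as did Bysl beside Ccnd3 (31.2 and 30.8 FPKM, against 22.0 and 22.7 FPKM). Pmel beside Cdk2 stood at 1.01 and 1.21 FPKM in knockout and 0.289 and 0.208 FPKM in control. Tspan31 beside Cdk4 was at 81.2 and 83.9 FPKM in knockout and 88.8 and 90.5 FPKM in control and did not pass (-0.12, 95% interval -0.27 to 0.03, adjusted p = 0.138), whereas Cdk4 rose. A processed pseudogene of Ccnd3 shares 881 nt at 96.3% identity with it, and the Ccnd3 value is uncertain to that extent.

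Among the other genes of the pathway, a list of targets of E2F at the G1/S boundary rose in 16 of 16 members (median log2 fold change 1.24). This stands beside 30.1% of all tested genes that rose. The list was chosen with earlier results of these data known, so the count is not a test of E2F targets. Mcm6 and Mcm7 encode subunits of the replicative helicase. Mcm6 was at 71.8 and 61.2 FPKM in knockout and 11.6 and 12.7 FPKM in control, and Mcm7 was at 107 and 104 FPKM in knockout and 31.8 and 32.5 FPKM in control. Of the RB and E2F list, 2 of 13 members rose, 4 fell and 7 did not pass (median -0.04). Over all tested genes 30.1% rose and 33.8% fell. The pocket protein gene Rbl1 (p107) rose by 0.70, E2f5 rose by 0.67 and E2f3 fell (-0.9993). With the length trend removed 4 rose and 5 fell. Rb1, the retinoblastoma gene, was at 4.64 and 5.57 FPKM in knockout and 3.99 and 3.84 FPKM in control and did not pass (0.31, limma adjusted p = 0.0733). E2f1 was at 8.09 and 8.36 FPKM in knockout and 9.48 and 9.97 FPKM in control and did not pass (-0.22, adjusted p = 0.0816). With the length trend removed both passed, at 0.49 and -0.27 (adjusted p = 0.0257 and 0.0341).

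Of the cyclins and the kinase that act later, in S phase and mitosis, 3 of 5 rose and 1 fell (median 0.27), and 2 rose and 1 fell with the length trend removed. Cdk1, the mitotic kinase, was at 107 and 118 FPKM in knockout and 34.4 and 37.2 FPKM in control and rose by 1.63. Ccna2, whose product activates Cdk2 and Cdk1, was at 119 and 114 FPKM in knockout and 85.4 and 89.8 FPKM in control and rose by 0.41 (limma adjusted p = 0.00456). Ccnf, which encodes an F-box protein of the cyclin family, fell (-0.84). Of 22 other CDKs and cyclins, most with roles in transcription or outside the cell cycle, 6 rose and 13 fell (median -0.47), and 7 rose and 10 fell with the length trend removed (median -0.19). Cdk14 was at 0.851 and 0.906 FPKM in knockout and 9.67 and 9.45 FPKM in control, Cdk19 of the Mediator kinase module fell (-1.52), and Ccnt1, the cyclin of the elongation factor P-TEFb, fell (-1.31). These counts stand beside the 30.1% of all tested genes that rose and the 33.8% that fell.

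Of the 5 other CDK inhibitors, 4 were tested, and 2 rose and none fell (median 0.37), beside 30.1% and 33.8% of all tested genes. Cdkn1a, which encodes p21, was at 42.0 and 53.1 FPKM in knockout and 30.1 and 33.1 FPKM in control and rose by 0.57 (limma adjusted p = 0.0146), but it did not pass when control library a was omitted (0.50, adjusted p = 0.0577). Cdkn2b, the p15Ink4b gene next to Cdkn2a, was at 14.5 and 11.6 FPKM in knockout and 9.27 and 10.2 FPKM in control. It did not pass (0.38, adjusted p = 0.0532), and it passed under 5 of the 14 alternative settings. Cdkn2c, which encodes p18Ink4c, was at 7.35 and 6.56 FPKM in knockout and 4.94 and 5.46 FPKM in control and rose by 0.36 (adjusted p = 0.0363), a call lost under 4 settings. With the length trend removed 1 of the 4 rose and 1 fell. Cdkn1c lay between 0.428 and 0.782 FPKM in all 4 libraries, below the level tested.

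Of 16 genes for CDK activation and the SCF ubiquitin ligases that degrade cyclin E and p27, 4 rose and 3 fell (median 0.05), and 6 rose and 4 fell with the length trend removed. Without that step the share called stood below the 63.9% of all tested genes, and with it the share was near their 63.7%. Skp1a, an SCF core subunit, was at 231 and 223 FPKM in knockout and 122 and 126 FPKM in control, and Ccnh, the cyclin of the CDK-activating kinase, at 37.5 and 36.8 FPKM in knockout and 21.0 and 19.4 FPKM in control. Cks2, which encodes a small CDK-binding protein, fell (-0.46). Skp2 and Fbxw7, whose products are the F-box proteins that target p27 and cyclin E, were chosen after their values were seen. Fbxw7 was at 3.72 and 3.09 FPKM in knockout and 6.37 and 7.05 FPKM in control and fell (-0.81, limma adjusted p = 0.00396). Skp2 was at 12.9 and 10.05 FPKM in knockout and 8.45 and 8.47 FPKM in control and did not pass (0.39, limma adjusted p = 0.0533), but passed at 0.74 with the length trend removed (adjusted p = 0.00368). Of 11 genes known to regulate Cdkn2a or its products, 1 rose and 5 fell (median -0.25), and 2 rose and 5 fell with the length trend removed, beside 30.1% and 33.8% of all tested genes. The list mixes genes that activate and genes that repress Cdkn2a, so these counts and this median give no direction for its regulation. Ezh2, the Polycomb methyltransferase gene, was at 73.2 and 67.8 FPKM in knockout and 27.8 and 29.3 FPKM in control, a rise of 1.27. Ets2 (-0.86) and Dmtf1 (-1.08), whose products activate Cdkn2a transcription, fell, and Bmi1, the Polycomb gene known to repress Cdkn2a, did not pass (0.05, 95% interval -0.25 to 0.36, adjusted p = 0.711).

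**Figure D5:**
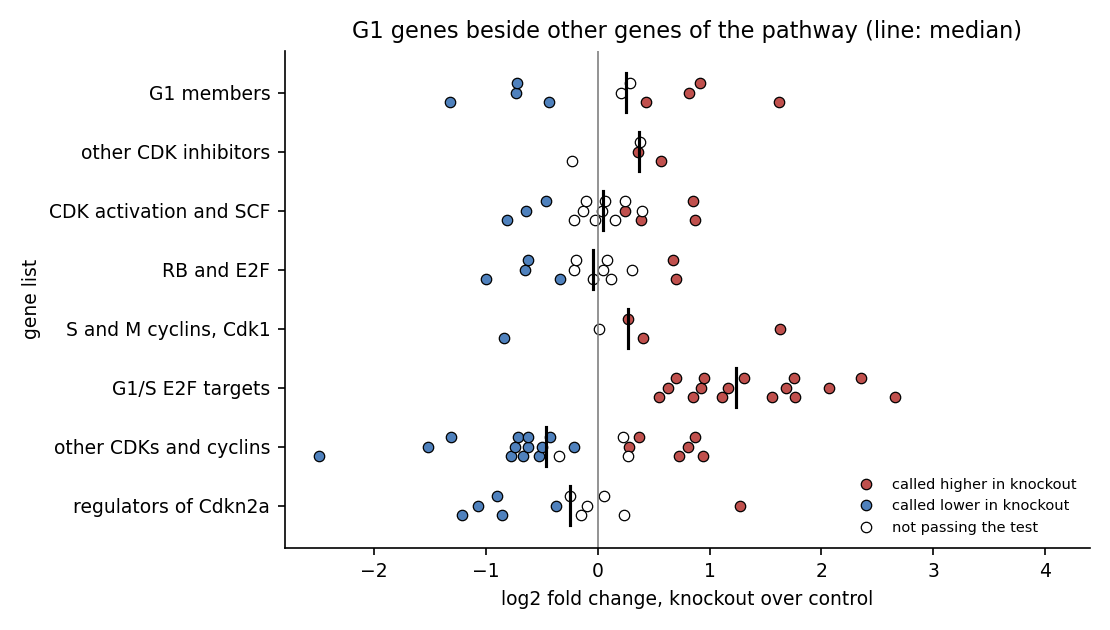
Log2 fold change, knockout over control, of each tested gene (points) in the G1 set and in 7 lists of other genes of the pathway, with the median of each list as a line. The 16 listed G1/S E2F targets all lie above 0, the lowest at 0.55, while the G1 genes spread from -1.32 to 1.62.

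Markers of squamous epithelium, from which these carcinomas arise, and of several other cell types differed between the groups. In RNA of whole tumours fewer cells of a type and less RNA per cell cannot be told apart. Squamous epithelium markers fell in 7 of 11 members and none rose, with a summed level of 4799 to 4957 FPKM in knockout and 8455 to 8599 FPKM in control. T cell markers rose in 10 of 10 (45.8 to 50.2 FPKM summed in knockout, 17.04 to 21.2 FPKM in control), B cell markers in 6 of 8 (50.2 to 99.8 FPKM, against 25.9 to 32.8 FPKM) and macrophage markers in 5 of 9 (284 to 333 FPKM, against 212 to 219 FPKM). Salivary gland markers rose in 5 of 5, with a summed level of 4840 FPKM in knockout library 1, 1077 FPKM in library 2 and 6.79 to 36.9 FPKM in the control libraries. Neutrophil markers rose in 3 of 5 and 1, Cxcr2, fell (227 to 265 FPKM summed in knockout, 161 to 177 FPKM in control). Most of that sum came from S100a8 (142 and 164 FPKM in knockout) and S100a9 (75.8 and 88.6 FPKM). Fibroblast markers rose in 1 of 7 (31.0 to 36.7 FPKM, against 25.2 to 30.3 FPKM), and that 1 was Thy1. Endothelial markers rose in 1 of 2 tested and fell in the other (7.07 to 8.58 FPKM, against 7.12 to 7.93 FPKM). None of the 5 tested skeletal muscle markers passed by limma, with 0 also at an unadjusted p under 0.05 (241 to 303 FPKM summed in knockout, 240 to 271 FPKM in control). These counts stand beside the 30.1% of all tested genes that rose and the 33.8% that fell, and nothing particular to a marker list is read from them. No marker in the table was listed at 0 in all 4 libraries. The part of these cells in the changes of the G1 genes was not tested.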

How the data were processed

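The submitters' processing notes name TopHat, Cufflinks and mouse build mm9, without versions, annotation or strand setting. One deposited table holds 14159 genes in 4 libraries. Its values were read as the authors' FPKM, although the sheet is named for CPM, because the columns summed to 592281 to 626719 and because level hardly varied with transcript length (rank correlation -0.0847 to 0.0126 across 14031 genes). Read depth is unknown, so no counting interval is given. Both control columns carry the same header and are called a and b. The 12046 genes that reached 1 FPKM in 2 or more libraries were fitted as log2(FPKM + 1) with limma 3.58.1 in R 4.3.3 (eBayes with trend, prior degrees of freedom 2.93, residual 2), two-sided, with Benjamini-Hochberg adjustment and a threshold of 0.05. Fold changes on that scale understate those of low genes. The test was tested on simulated data. Alternatives were pseudocounts of 0.1 and 5, other filters, scalings and priors, removal of a loess trend with transcript length (99.1% of genes matched to GENCODE M21), omission of genes under 500 nt, and leaving out each library. Genes overlapping on the genome or sharing at least 300 nt at 95% identity were found in GENCODE M21. Promoters came from RefSeq. The 10 genes and all lists were chosen with earlier results of these data known. Genes named beside the 10 were Kdm4a, the 3 of smallest p in each pathway list, Cdkn1a, Cdkn2b, Rb1, E2f1, Bmi1, Ccna2, and the highest marker of each cell type, of which some are given only through their list and 1 is not reported here.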

Additional observations from a re-analysis of the deposited data

How the results depend on the processing

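Across 14 alternatives, 136 of 140 values of the G1 genes kept their direction and side of the threshold, 1 lost its call, 3 gained one and none changed sign. The count that rose ran from 4 to 5 and the count that fell from 3 to 4. Over 44 named genes, 581 of 613 values kept both, 12 lost a call, 13 gained one and 7 changed sign, all for genes that did not pass: Bmi1 was at -0.026 without control library a and -0.067 without knockout library 1 (highest with 1 library left out 0.174), the fibroblast gene Dcn at -0.017 without control library b, and the muscle gene Acta1 at -0.0235 with quantile normalization, -0.098 with the length trend removed, -0.0172 without control library b and -0.0783 without knockout library 2 (highest 0.236). The cause was not tested. Settings that changed only the filter or the prior left each log2 fold change as it was, so its direction could not change there. Fits that left out 1 library held no spread for the group left with 1 library. With quantile normalization the knockout minus control difference in the Ccnd1 share of D cyclin FPKM was -17.8 percentage points, against -18.4, and that in the Ccnd2 share 6.16, against 6.56. With the length trend removed, a setting chosen for the shares after seeing the data, the differences were -21.6 (Ccnd1), 11.2 (Ccnd2), 10.4 (Ccnd3, against 11.9) and -5.50 (Cdk6, against -13.0). Leaving out 1 library gave 2437 to 3691 genes higher and 2808 to 4455 lower over the whole table, against 3628 and 4073. No paired analysis was possible because both control columns carry the same name and no replicate number. Depth is unknown and 2 libraries a group limit the precision.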
